A study of Homo sapiens with 6 samples.

Results

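Mitosis is run by a set of genes whose messenger RNAs accumulate late in the cell cycle: kinases that start division, motor proteins and microtubule-binding proteins that build the spindle, the kinetochore and its checkpoint, condensin, and the proteins that pinch the daughter cells apart. Their transcription is held down in resting cells by the MuvB complex together with the pocket proteins (the DREAM complex), and raised in G2 phase by MuvB with B-MYB and FOXM1. Many of their promoters carry a short element called the cell cycle genes homology region (CHR) and CCAAT boxes bound by the factor NF-Y. In liver scarring, activated hepatic stellate cells divide as well as lay down matrix. The 50 genes described here were taken by symbol from such mitotic genes, 50 of the 60669 rows of the deposited table. They cover mitotic entry, the Aurora kinases and the chromosomal passenger complex, the spindle checkpoint, anaphase and mitotic exit, the centromere and kinetochore, the mitotic kinesins, spindle microtubules, cytokinesis and mitotic chromosome structure. Every one of the 50 had a mean value of at least 10 normalized counts over the 6 libraries and entered the test, among 15637 genes tested.

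The libraries come from LX-2, an established human line derived from activated hepatic stellate cells, labelled wild type. Cells were transfected with Lipofectamine RNAiMAX and collected after 48 h. One group received the commercial negative-control small interfering RNA (siCTL, 3 libraries) and the other an siRNA against ADAMTS12, which encodes a secreted metalloproteinase (siADAMTS12, 3 libraries). Both groups therefore share the line, the transfection and the time, a single siRNA sequence stands for the knockdown, and no untransfected cells were analysed. The question the design addresses is which RNAs differ when ADAMTS12 is depleted. The labels do not state whether the 3 libraries of a group are separate cultures, and p-values here reflect library-to-library spread that may be technical. These are bulk libraries, in which fewer cells in G2 or M phase and less RNA per such cell cannot be told apart.

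The knockdown target was checked first. ADAMTS12 stood at 13709, 12235 and 13423 normalized counts in the siCTL libraries and at 4083, 3449 and 3687 in the siADAMTS12 libraries, which is 71.5% lower (log2 fold change -1.81 ± 0.07, SE; limma, adjusted p = 4.81e-08). Of 12 stellate cell markers, 10 had a mean of at least 10, while LRAT was at 0 in every library and DES was at 0 in 5 of 6. Summed stellate markers ran from 358699 to 394720 in the siCTL libraries and from 280645 to 294081 in the siADAMTS12 libraries. Hepatocyte markers summed to 17 to 19 and 22 to 28, endothelial markers to 128 to 130 and 58 to 68, and leukocyte markers to 5 to 14 and 4 to 9. Epithelial markers summed to 283 to 298 and 233 to 262, nearly all of it KRT7. The part of these marker differences in the results below was not tested. The deposited columns summed to 33576945, 33615095 and 34072515 in siCTL and to 30809341, 31415206 and 30678468 in siADAMTS12.

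Of the 50 mitotic genes, 15 fell and 1 rose after ADAMTS12 depletion, and 34 did not pass the test (limma, Benjamini-Hochberg adjusted p under 0.05 over all 15637 genes). These were 30% and 2.00% of the mitotic genes, against 15.5% that fell and 11.5% that rose among all genes tested. The genes that fell included CDCA8 and CDCA2, which bring Aurora B and protein phosphatase 1, respectively, to chromosomes, RACGAP1 and ANLN of the cleavage furrow, the tubulin TUBB4B, the DNA topoisomerase TOP2A, and the kinetochore genes NDC80, NUF2 and CENPA. The gene that rose was PLK1, a kinase of mitotic entry. The 15 declines were modest, between 11.4% and 39.8%.

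Shifts below the threshold leaned the same way. The median log2 fold change of the 50 genes was -0.14, with the middle of the distribution (lower to upper quartile) between -0.22 and -0.04, against a median of 0.0050 over all genes tested. A value below 0 was found for 43 of the 50 (86.0%), against 49.1% of all genes. All 3 siADAMTS12 libraries lay below all 3 siCTL libraries for 21 of the 50, where 21.7% of all genes tested were arranged in this way, and above them for 2, where the share of all genes was 19.2%. The 34 genes that did not pass the test ranged from -0.38 to 0.18, with a median of -0.09 and 28 of them below 0.

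**Figure D1:**
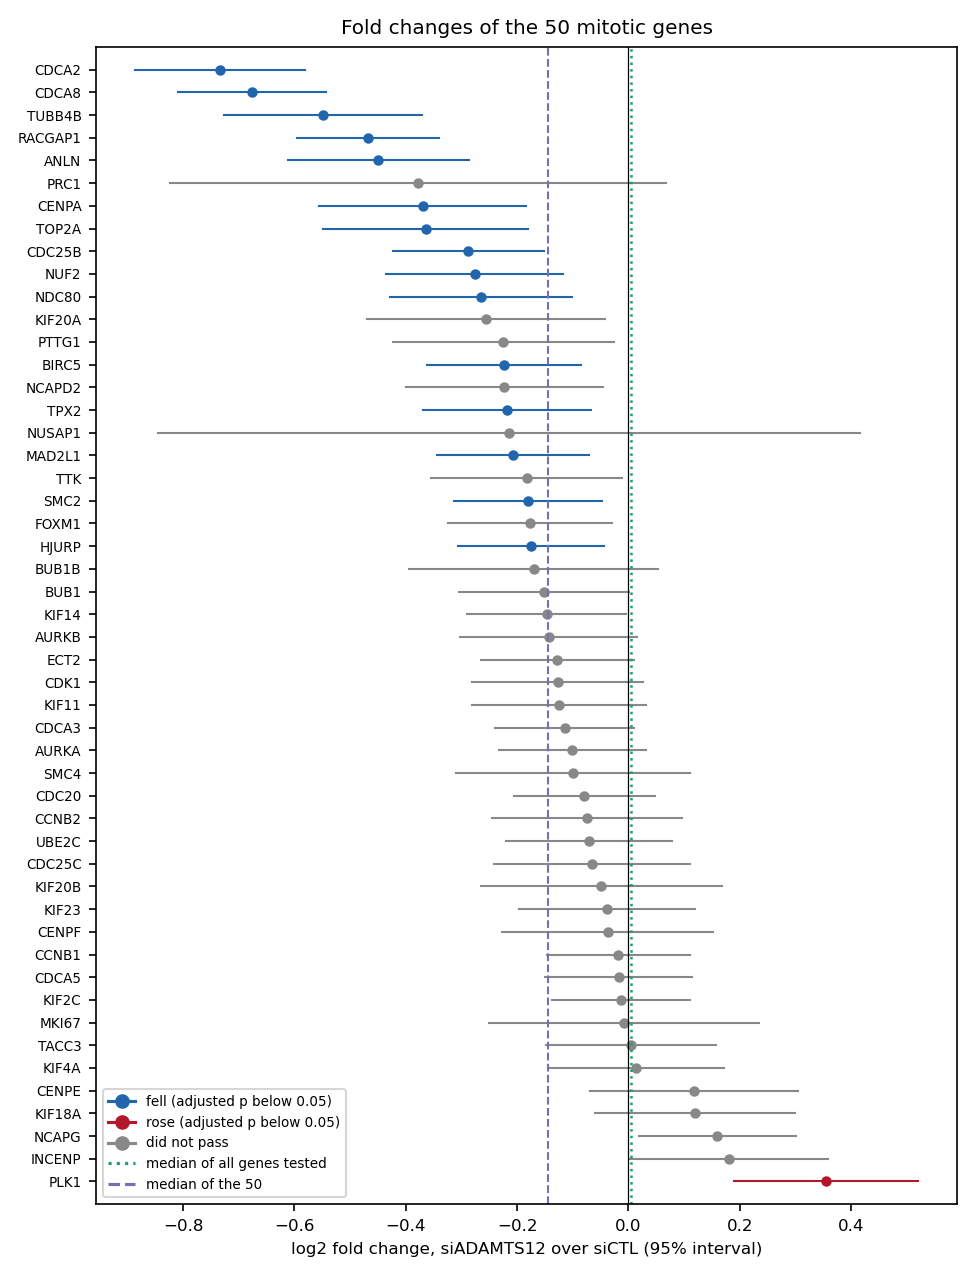
Log2 fold change (siADAMTS12 over siCTL) of each of the 50 mitotic genes with its 95% confidence interval, ordered by size; the dashed and dotted lines are the medians of the 50 genes and of all genes tested, and colour shows whether a gene fell, rose or did not pass the limma test. CDCA2 and CDCA8 lie farthest to the left of the 50, at -0.73 and -0.68, and PLK1 farthest to the right, at 0.35.

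The 3 knockdown libraries were not equally low. Replicate 2 of siADAMTS12 held the highest value of its group for 43 of the 50 genes, where it did so for 37.7% of all genes tested. Its median mitotic gene lay 0.18 above the mean of siADAMTS12 replicates 1 and 3 on the log2 scale, against 0.0079 over all genes. Measured against the siCTL mean, the median of the 50 genes was -0.21 in replicate 1, -0.03 in replicate 2 and -0.21 in replicate 3. The share of a library's summed values held by the 50 genes was 0.946%, 0.995% and 0.978% in siCTL and 0.896%, 1.01% and 0.908% in siADAMTS12, so the groups overlapped, with siADAMTS12 replicate 2 above all controls. Without siADAMTS12 replicate 2, 22 of the 50 fell and 1 rose, while 2364 of 15650 genes tested fell and 1623 rose. The 8 declines gained were FOXM1, BUB1, BUB1B, TTK, PTTG1, KIF14, KIF20A and NCAPD2, and the 1 lost was MAD2L1. Without siADAMTS12 replicate 3, 8 fell and 1 rose, and without siADAMTS12 replicate 1, 10 fell and 2 rose. The siCTL libraries also differed, with replicate 1 the lowest of its group for 30 of the 50 genes, and leaving out 1 of them left 10 or 11 declines and 1 rise.

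**Figure D2:**
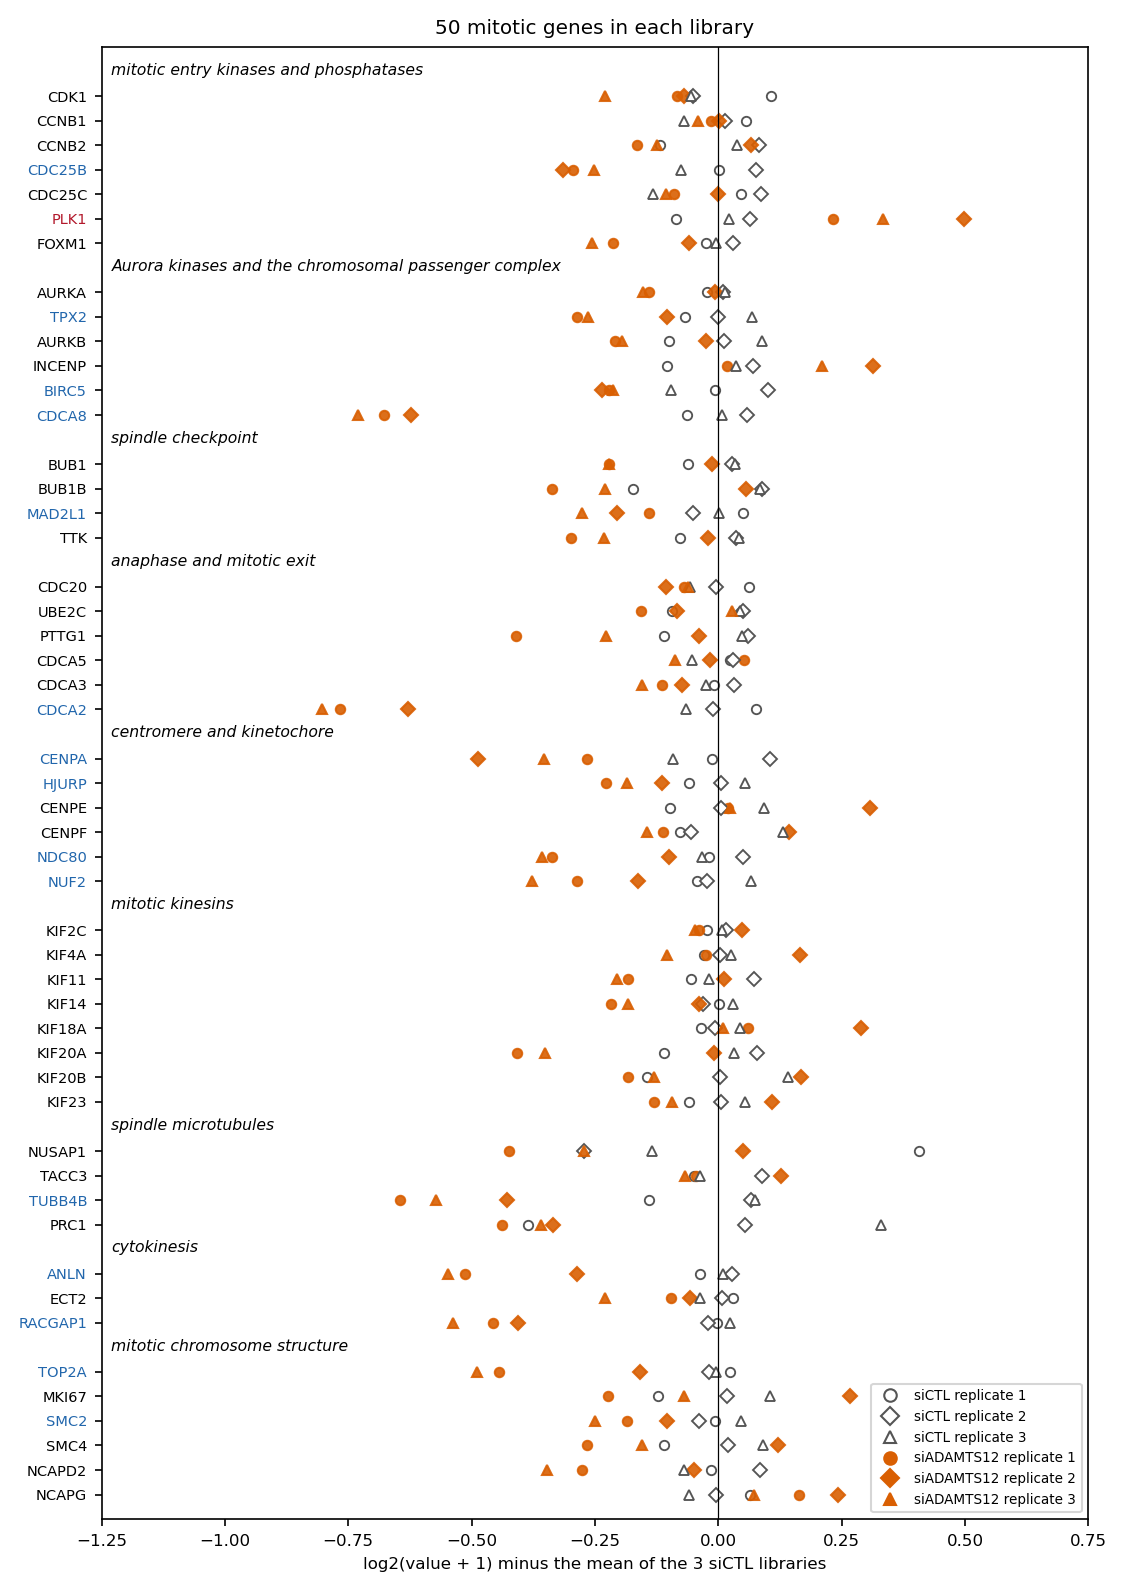
Each library's log2(value + 1) minus the mean of the 3 siCTL libraries for the 50 genes, arranged by role, with the group marked by colour and fill and the replicate by symbol. Points of siADAMTS12 replicate 2 sit to the right of the remaining knockdown libraries for 43 of 50 genes.

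Whether the replicate numbers pair libraries across the groups is not settled (the check is given with the processing). With the replicate number as a block 20 of the 50 fell and 3 rose, while 3059 and 2423 of all 15637 genes did so. None of the calls among the 50 was lost. The 7 gained were declines of FOXM1 (adjusted p = 0.0215 with limma, as for the others), TTK (0.0348), PTTG1 (0.0129), KIF20A (0.00994) and NCAPD2 (0.00679) and rises of INCENP (0.0172) and NCAPG (0.0347). Scaling mattered for the smaller shifts. When the columns were rescaled to equal totals, which moved the median of all genes to 0.13, 6 of the 50 fell and 5 rose (45.5% of calls were rises, against 6.25% before), and with quantile normalization 7 fell and 3 rose. Of all 15637 genes, 1546 fell and 3868 rose with equal totals, and 2078 fell and 2175 rose with quantile normalization. With the deposited scaling these were 2424 and 1798. Relative to the median of all genes the 50 stood at -0.15 with the deposited scaling and at -0.087 with quantile normalization. Equal totals move every gene by nearly the same amount, so the value there, also -0.15, could not differ. CDCA8, CDCA2, TUBB4B, ANLN and RACGAP1 fell and PLK1 rose under all 15 alternatives that were computed, with the largest adjusted p at 0.0403 (limma).

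**Figure D3:**
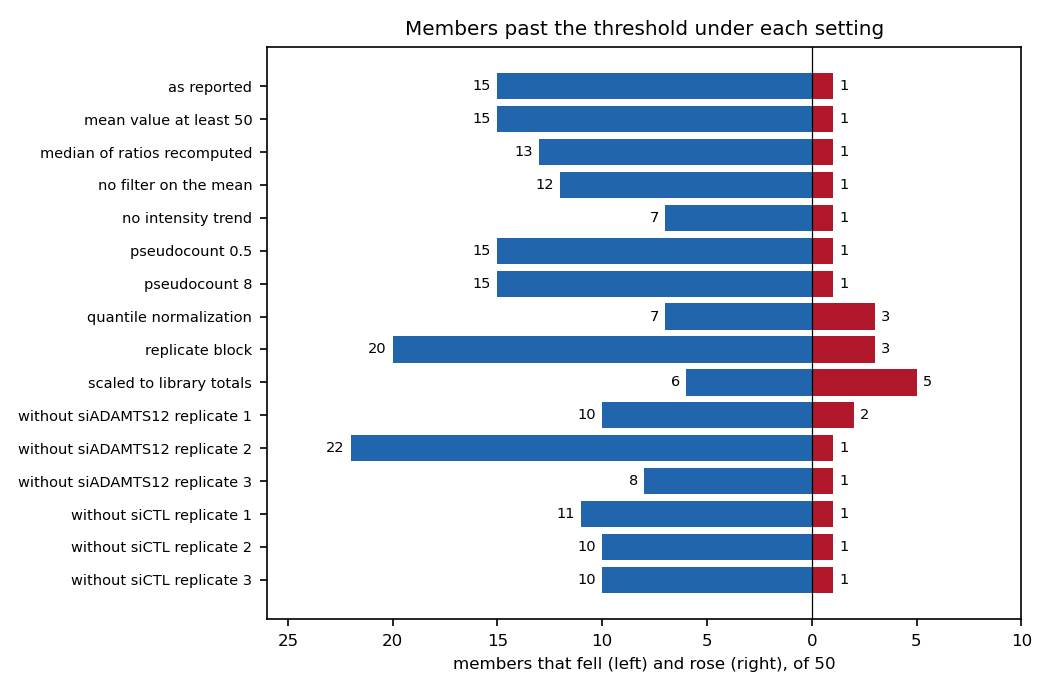
Number of the 50 genes that fell and that rose under the deposited scaling and each of the 15 alternatives (limma, adjusted p under 0.05). Declines range from 6 with equal library totals to 22 without siADAMTS12 replicate 2.

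The counts by role that follow come from small groups, and 15.5% of all genes tested fell and 11.5% rose. The genes of mitotic entry gave 1 decline and 1 rise among 7. PLK1, the Polo-like kinase that drives entry, centrosome maturation and cytokinesis, stood at 4379, 4854 and 4717 normalized counts in siCTL and at 5458, 6563 and 5854 in siADAMTS12. Every knockdown library was above every control library. The rise was 27.9% (log2 fold change 0.35 ± 0.08, limma adjusted p = 0.00482). PLK1 lies at chr16:23677656-23690367 on the plus strand of GRCh38. CDC25B, a phosphatase that activates the mitotic kinase CDK1, moved the other way, from 13725, 14464 and 13013 in siCTL to 11186, 11025 and 11519 in siADAMTS12. Its groups did not overlap and its log2 fold change was -0.29 ± 0.06 (limma adjusted p = 0.00513). That call was lost with quantile normalization and with equal library totals.

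FOXM1, a transcription factor of G2-phase genes, had the highest mean value of the entry group before any correction for length. It was measured at 16562, 17211 and 16803 in siCTL and at 14532, 16167 and 14118 in siADAMTS12. The 3 knockdown values were all lower, by -0.18 ± 0.07 on the log2 scale, and missed the threshold without the replicate block (limma adjusted p = 0.0718). The remaining 4 were CDK1 itself, the cyclins CCNB1 and CCNB2 that activate it, and the phosphatase CDC25C. Their log2 fold changes were -0.13, -0.02, -0.07 and -0.07 in that order. For CCNB1 the 95% confidence interval of the log2 difference ran from -0.15 to 0.11. The ratio of PLK1 to CCNB1 within a library, a pair chosen after the values were seen, was 0.449 ± 0.038 (SD, n = 3) in siCTL and 0.582 ± 0.051 in siADAMTS12, with no overlap (exact two-sided permutation p = 0.1, the smallest that 3 against 3 can give).

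In the Aurora kinase group 3 of 6 genes fell. The chromosomal passenger complex is Aurora B (AURKB) with the scaffold INCENP, survivin (BIRC5) and borealin (CDCA8), and it corrects wrong spindle attachments and later acts at the midzone. CDCA8 stood at 4106, 4467 and 4314 in siCTL and at 2685, 2788 and 2586 in siADAMTS12. The knockdown libraries were close together and far below the controls, 37.4% lower (log2 fold change -0.68 ± 0.06, limma adjusted p = 1.11e-05). CDCA8 lies at chr1:37692418-37709719 on the plus strand. BIRC5 was measured at 4010, 4321 and 3771 in siCTL and at 3454, 3420 and 3474 in siADAMTS12, with log2 fold change -0.22 ± 0.06 (limma adjusted p = 0.0221). TPX2, which activates Aurora A on spindle microtubules and had the highest mean value of the 6, went from 14216, 14886 and 15616 to 12206, 13852 and 12407 (-0.22 ± 0.07, limma adjusted p = 0.0359). Neither BIRC5 nor TPX2 had overlapping groups, but the calls of both were lost when siADAMTS12 replicate 1, siADAMTS12 replicate 3 or siCTL replicate 2 was left out. That of BIRC5 was also lost without siCTL replicate 1 and that of TPX2 without siCTL replicate 3. Both calls were lost with quantile normalization (-0.14 for BIRC5, -0.05 for TPX2), with equal library totals (-0.10 and -0.09) and without the intensity trend. TPX2 also lost its call with no filter on the mean.

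The partners of these proteins did not pass the test without the replicate block. AURKB was at -0.14 ± 0.07 and AURKA, the spindle pole kinase, at -0.10 ± 0.06 on the log2 scale. INCENP was at 4038, 4557 and 4451 in siCTL and at 4395, 5400 and 5026 in siADAMTS12, which gives 0.18 ± 0.08 (limma adjusted p = 0.123). INCENP rose with the replicate block (limma adjusted p = 0.0172), with quantile normalization (0.0230), with equal totals (0.0122) and without siADAMTS12 replicate 1 (0.0297). The within-library ratio of CDCA8 to INCENP, chosen after the values were seen and made of the same values as their fold changes, was 0.989 ± 0.025 (SD, n = 3) in siCTL and 0.547 ± 0.055 in siADAMTS12, with no overlap (exact two-sided permutation p = 0.1, the smallest possible here).

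Of the 4 spindle checkpoint genes 1 fell. MAD2L1, the protein that holds back the anaphase-promoting complex until chromosomes are attached, stood at 2566, 2393 and 2481 in siCTL and at 2248, 2150 and 2047 in siADAMTS12. All knockdown values were lower (log2 fold change -0.21 ± 0.06, limma adjusted p = 0.0293). This call was lost in 7 of the 15 alternatives, among them leaving out siADAMTS12 replicate 2 or 3 or siCTL replicate 1 or 3. BUB1, the checkpoint kinase with the highest mean value of the 4, uncorrected for length, was at 4536, 4823 and 4840 in siCTL and at 4059, 4691 and 4058 in siADAMTS12. Replicate 2 of siADAMTS12 lay among the controls and replicates 1 and 3 lay below them (-0.15 ± 0.07, limma adjusted p = 0.133). BUB1B, which is part of the inhibitory complex, and the kinase TTK showed the same arrangement, at -0.17 ± 0.10 and -0.18 ± 0.08. With the replicate block TTK fell (limma adjusted p = 0.0348).

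Among 6 genes of anaphase and mitotic exit 1 fell. CDCA2, also called Repo-Man, is a chromatin-bound subunit of protein phosphatase 1 that removes mitotic phosphate from histones at exit. It had the lowest log2 fold change of the 50, with 2528, 2380 and 2290 in siCTL against 1409, 1549 and 1373 in siADAMTS12. The groups were far apart, 39.8% lower in the knockdown (log2 fold change -0.73 ± 0.07, limma adjusted p = 1.69e-05). CDC20, the activator of the anaphase-promoting complex, had the highest mean value of the group, uncorrected for length. Its values were 8385, 8014 and 7721 in siCTL and 7656, 7469 and 7698 in siADAMTS12. These groups did not overlap, but by a narrow margin, and the difference was -0.08 ± 0.06 (limma adjusted p = 0.343), with a sign that turned to 0.09 with quantile normalization and to 0.05 with equal totals. The ubiquitin-conjugating enzyme UBE2C was at -0.07, securin (PTTG1), which restrains separase, at -0.23, sororin (CDCA5), which protects cohesin, at -0.02 and CDCA3, which helps degrade WEE1, at -0.11. With the replicate block PTTG1 fell (limma adjusted p = 0.0129).

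**Figure D4:**
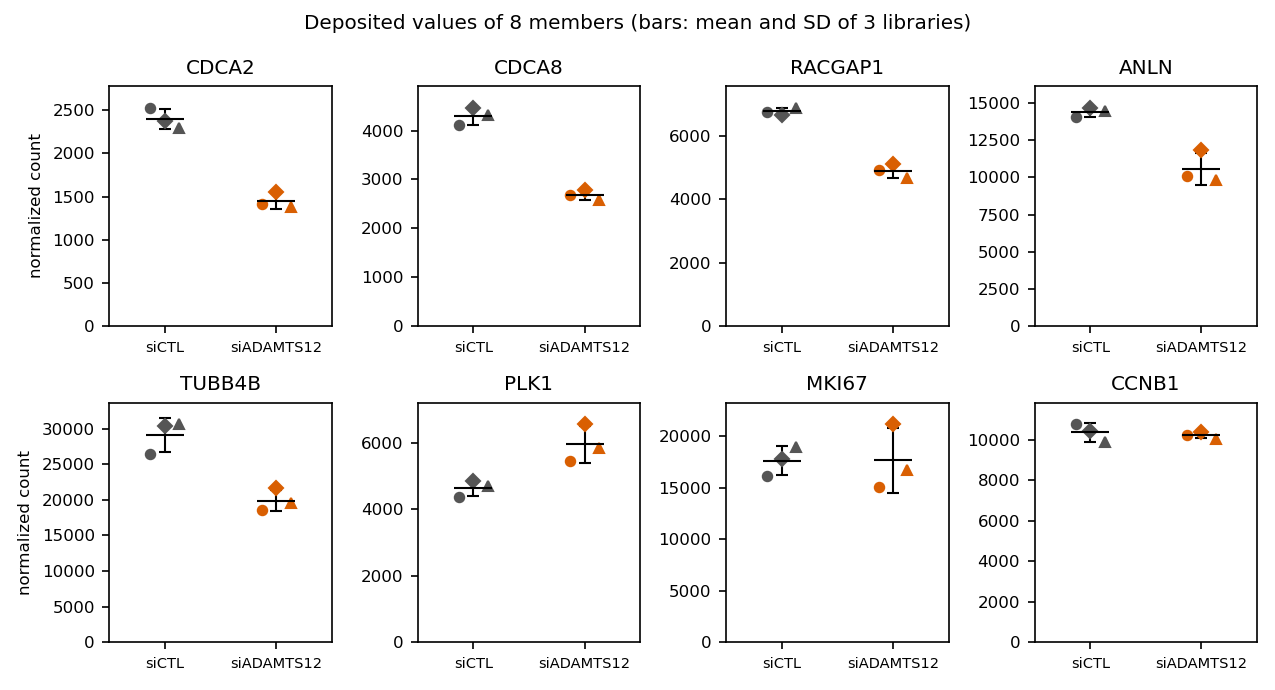
Deposited normalized counts in each library for 8 mitotic genes, with a symbol for each of the 3 replicates and bars for the mean and SD of each group; each panel has its own vertical axis from 0. The groups are apart for CDCA2, CDCA8 (2586 to 2788 against 4106 to 4467), RACGAP1, ANLN, TUBB4B and PLK1, and overlap for MKI67 and CCNB1.

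Of the 6 centromere and kinetochore genes 4 fell. CENPA, the histone H3 variant that marks centromeres, was at 870, 945 and 824 in siCTL and at 730, 626 and 687 in siADAMTS12 (log2 fold change -0.37 ± 0.08, limma adjusted p = 0.00754). With equal library totals its value was -0.25 and the call was lost (limma adjusted p = 0.0535). HJURP, the chaperone that deposits CENPA, went from 4590, 4798 and 4963 to 4086, 4417 and 4206. Both genes were lower in every knockdown library, but HJURP passed narrowly (-0.18 ± 0.06, limma adjusted p = 0.0495) and its call was lost in 10 of the 15 alternatives, among them leaving out any library but siADAMTS12 replicate 2. NDC80 and NUF2 encode the paired subunits of the complex that grips microtubules. NDC80 stood at 3547, 3720 and 3513 in siCTL and at 2844, 3350 and 2804 in siADAMTS12 (-0.26 ± 0.07, limma adjusted p = 0.0213). NUF2 stood at 1593, 1617 and 1719 and at 1346, 1467 and 1263 (-0.28 ± 0.07, limma adjusted p = 0.0153). In both, siADAMTS12 replicate 2 was the nearest to the controls without reaching them, and both calls were lost without siADAMTS12 replicate 3. The call of NDC80 was also lost without siADAMTS12 replicate 1 or siCTL replicate 2, and that of NUF2 without siCTL replicate 3. With equal library totals both calls were lost (-0.14 for NDC80, -0.15 for NUF2), as they were without the intensity trend. Quantile normalization removed the call of NDC80 (-0.19) and kept that of NUF2 (-0.25).

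The 2 large coiled-coil proteins of the outer kinetochore did not pass. CENPF, a long transcript with the highest uncorrected mean value of this group, was at 8848, 8986 and 10227 in siCTL and at 8640, 10312 and 8440 in siADAMTS12. The groups overlapped, with siCTL replicate 3 and siADAMTS12 replicate 2 both high (-0.04 ± 0.09, limma adjusted p = 0.791). Its sign turned when either of siCTL replicate 3 and siADAMTS12 replicate 3 was left out, to 0.03 and 0.02, and also with quantile normalization and equal totals. CENPE, a kinesin-like motor of the kinetochore, was at 0.12 ± 0.09 and passed the test as a rise with equal library totals.

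None of the 8 mitotic kinesins passed the limma test, and 2 of them, KIF14 and KIF20A, had an unadjusted p under 0.05. Their log2 fold changes ran from -0.26 to 0.12 with standard errors of 0.06 to 0.10, and the lower end of the widest-reaching confidence interval was -0.47. KIF20A, which carries the passenger complex to the spindle midzone, had the smallest p of the 8. It was measured at 6718, 7659 and 7409 in siCTL and at 5463, 7206 and 5687 in siADAMTS12. Knockdown replicates 1 and 3 were below all controls and replicate 2 lay among them (limma adjusted p = 0.0740, or 0.00994 with the replicate block).

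KIF23, the motor that pairs with RACGAP1 in the centralspindlin complex, had the highest uncorrected mean value of the kinesins. Its values were 7370, 7706 and 7974 in siCTL and 7017, 8280 and 7192 in siADAMTS12, with overlapping groups (-0.04 ± 0.07, limma adjusted p = 0.739) and a sign that turned to 0.01 without siADAMTS12 replicate 1, to 0.13 with quantile normalization and to 0.09 with equal totals. Of the others, KIF11, which pushes spindle poles apart, was at -0.13, and KIF14, a midbody motor, at -0.15 with groups that did not overlap. KIF2C, a microtubule depolymerase, was at -0.01, the chromokinesin KIF4A at 0.01, KIF18A, which limits chromosome oscillation, at 0.12, and KIF20B at -0.05. With equal library totals KIF18A passed the test as a rise.

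Among 4 genes of spindle microtubules 1 fell. TUBB4B, a beta-tubulin isotype, stood at 26362, 30421 and 30589 in siCTL and at 18585, 21588 and 19536 in siADAMTS12. It was lower in all knockdown libraries, by 31.6% (log2 fold change -0.55 ± 0.08, limma adjusted p = 0.000463). With quantile normalization its log2 fold change was -0.33 and the call held. TUBB4B lies at chr9:137241213-137243707 on the plus strand. TACC3, which cross-links kinetochore fibres, was at 0.0043 ± 0.07 on the log2 scale. The microtubule bundlers NUSAP1 and PRC1 had very low values, 31, 19 and 21 against 17, 24 and 19 for NUSAP1, and 55, 75 and 91 against 53, 57 and 56 for PRC1. At that level their confidence intervals were wide, -0.85 to 0.42 and -0.82 to 0.07, and no difference was detectable. In the GENCODE 29 annotation 62.2% of the exon bases of NUSAP1 and 57.6% of those of PRC1 are shared with another gene on the same strand, and only 4 of the 50 genes share any; the part of this in the low values was not tested.

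In cytokinesis 2 of 3 genes fell. ANLN (anillin), the scaffold that links actin and septins in the contractile ring, stood at 14048, 14695 and 14509 in siCTL and at 10098, 11824 and 9860 in siADAMTS12. That is 26.7% lower, with no overlap (log2 fold change -0.45 ± 0.07, limma adjusted p = 0.000995). RACGAP1, a subunit of centralspindlin, went from 6761, 6676 and 6889 to 4934, 5112 and 4667. The 3 values of each group were tight and 27.7% apart (-0.47 ± 0.06, limma adjusted p = 0.000132). ANLN lies at chr7:36389806-36453791 on the plus strand and RACGAP1 at chr12:49976923-50033136 on the minus strand. ECT2, the exchange factor that RACGAP1 recruits, was lower in each knockdown library without passing the test (-0.13 ± 0.06, limma adjusted p = 0.156). The within-library ratio of RACGAP1 to KIF23, chosen after the values were seen and made of the same values as their fold changes, was 0.883 ± 0.030 (SD, n = 3) in siCTL and 0.656 ± 0.043 in siADAMTS12, with no overlap (exact two-sided permutation p = 0.1, the smallest possible here).

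In mitotic chromosome structure 2 of 6 genes fell. TOP2A, the topoisomerase that untangles sister chromatids, was at 20902, 20304 and 20498 in siCTL and at 15106, 18416 and 14653 in siADAMTS12. The controls were tight and all knockdown libraries were lower, with replicate 2 nearest (log2 fold change -0.36 ± 0.08, limma adjusted p = 0.00779). This call was lost with quantile normalization (-0.19, limma adjusted p = 0.119) and without the intensity trend (limma adjusted p = 0.0505), and the value was -0.24 with equal totals. SMC2, a core subunit shared by both condensins, went from 5695, 5567 and 5904 to 5029, 5323 and 4809 and passed narrowly (-0.18 ± 0.06, limma adjusted p = 0.0465), with its call lost in 10 of the 15 alternatives, the same ones as for HJURP. Its partner SMC4, whose uncorrected mean over the 6 libraries was the highest of the group, just above TOP2A, was at 17526, 19177 and 20163 in siCTL and at 15746, 20570 and 16992 in siADAMTS12. The groups overlapped (-0.10 ± 0.10, limma adjusted p = 0.482), and the sign turned to 0.11 with quantile normalization and to 0.02 with equal totals.

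MKI67, the proliferation marker that coats mitotic chromosomes, was at 16148, 17802 and 18905 in siCTL and at 15066, 21148 and 16758 in siADAMTS12. One knockdown library was the lowest of the 6 and another the highest, and the difference was -0.0085 ± 0.11 (limma adjusted p = 0.970). Its 95% confidence interval, -0.25 to 0.23, did not reach the decline of CDCA8 or CDCA2. The condensin I subunits had opposite signs, NCAPD2 at -0.22 ± 0.08 and NCAPG at 0.16 ± 0.06, with NCAPG higher in all 3 knockdown libraries. Neither passed without the replicate block (limma adjusted p = 0.0614 and 0.0891), and both passed with it (0.00679 and 0.0347). NCAPG also rose with quantile normalization and with equal totals.

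Levels among the 50 genes can be compared only with a correction for length. The length used merges all annotated exons of a gene, which can exceed the length of any single transcript, so the order is approximate. Per kilobase of exon in GENCODE 29, TUBB4B was highest in siCTL, at 13796 normalized counts, followed by UBE2C at 4547, TPX2 at 4135, CCNB1 at 4054 and CDC20 at 3945. Leaving out NUSAP1 and PRC1, the other 48 lay between 229 and 13796 with a median of 1063. NUSAP1 and PRC1 were at 8.23 and 13.3.

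Promoter motifs, which the choice of genes did not use, were counted next. RefSeq promoter windows of GRCh38.p14, 250 bases before to 50 after a transcription start, were at hand for 42 of the 50 (54 windows, some genes having several starts). The CHR core was searched as TTTGAA and the CCAAT box as CCAAT, each on both strands. Stretches of 50 bases around the CHR match nearest the start are shown for genes that stand for the observed responses, 5′ to 3′ on the gene's own strand. Capitals mark both motifs, read in either direction, and a run of 10 capitals is a CHR core that overlaps a reversed CCAAT box. CDC20, HJURP, KIF23 and TOP2A show a CHR and a CCAAT box a few bases apart, INCENP the same pair farther apart, CDCA8 and MKI67 the overlapping form, ANLN a pair of CHR matches in opposite directions, and PLK1, which rose, a CHR match.
CDC20, chr1:43358894-43358943, plus strand: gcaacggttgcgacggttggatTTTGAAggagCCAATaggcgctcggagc
HJURP, chr2:233854619-233854668, minus strand: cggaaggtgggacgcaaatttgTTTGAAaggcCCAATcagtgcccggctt
KIF23, chr15:69414272-69414321, plus strand: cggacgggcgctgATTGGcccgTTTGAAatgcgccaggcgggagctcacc
TOP2A, chr17:40418020-40418069, minus strand: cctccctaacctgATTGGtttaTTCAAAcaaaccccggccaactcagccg
INCENP, chr11:62123979-62124028, plus strand: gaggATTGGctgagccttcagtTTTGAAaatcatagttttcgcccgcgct
CDCA8, chr1:37692471-37692520, plus strand: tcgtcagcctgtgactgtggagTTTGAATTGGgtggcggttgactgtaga
MKI67, chr10:128126425-128126474, minus strand: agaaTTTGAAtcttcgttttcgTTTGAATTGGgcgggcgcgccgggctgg
ANLN, chr7:36389820-36389869, plus strand: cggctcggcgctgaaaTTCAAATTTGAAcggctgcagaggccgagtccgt
PLK1, chr16:23678838-23678887, plus strand: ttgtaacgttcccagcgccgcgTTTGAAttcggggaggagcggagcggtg

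A CHR core was found in 35 of the 54 windows (64.8%), against 15.2% of all 35116 promoter windows of the same length. Of the 42 mitotic genes 32 (76.2%) had one in at least 1 window, against 13.6% of the 10904 genes tested that had a window. CCAAT was found in 36 of 54 windows (66.7%), against 34.6% of all windows, and both motifs in 27 of 54, against 5.90% of all windows. DNA replication genes, which peak earlier in the cell cycle, gave 1 of 29 genes with a CHR core (3.45%) and 18 of 29 with CCAAT. Counted by gene in the same way, CCAAT was found in 31 of the 42 mitotic genes (73.8%) and in 42.9% of the 10904 genes tested. Among the other genes of cell division listed for comparison, 49 of 145 had a CHR core (33.8%). Counted in bases from the start, negative before it, the centre of a match had a median of -24.5 in the mitotic genes (44 matches, of which 54.5% lay from -50 to 25). In the other genes tested the median was -130.5 (1797 matches, of which 21.5% lay in that range). A match is a description of these letters, not a binding site, and its absence says only that the letters are not in this window.

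**Figure D5:**
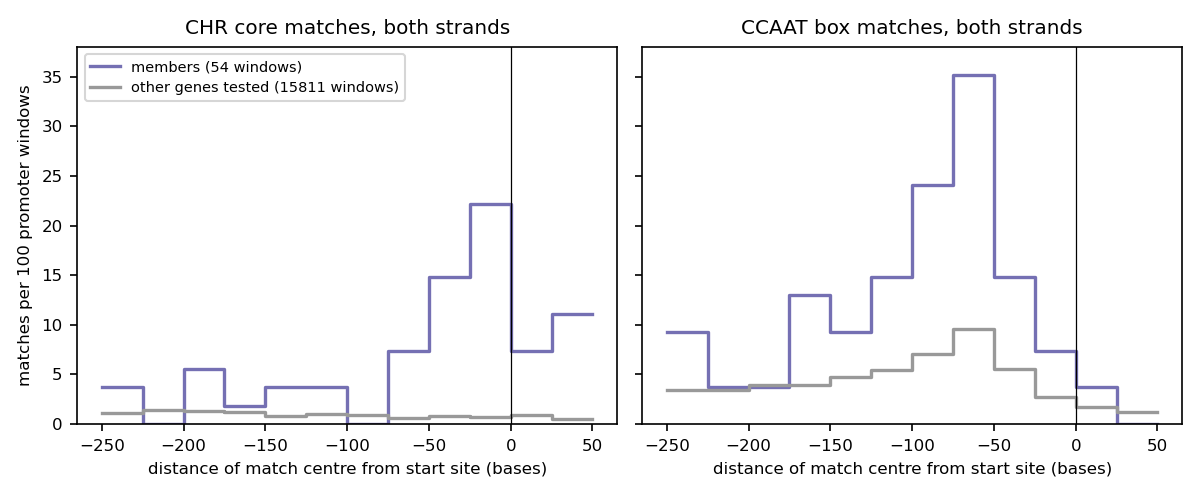
Matches of the CHR core (left) and the CCAAT box (right) per 100 promoter windows, in bins of 25 bases by distance from the transcription start, for the mitotic genes and for the other genes tested. In the 25 bases before the start the mitotic genes had 22.2 CHR matches per 100 windows and the other genes 0.734.

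The same motif was set beside the response of all genes. Of 1488 genes tested with a CHR core 18.2% fell and 11.5% rose, against 17.6% and 12.6% of the 9418 without one. Genes outside the 50 that held both motifs (592) gave 18.2% and 11.7%. Among the 50, 10 of 32 with a CHR core fell and 1 rose, and 1 of 10 without one fell. PLK1, which rose, and CDCA8, which fell, both carry a forward CHR core within 30 bases before the RefSeq start of their window. The match centres lie at -26.5 and -20.5 from that start, which the printed stretches do not mark. In both genes the RefSeq start lies inside the gene span given above, so the distance holds for that start only. MKI67 carries the same overlapping form as CDCA8 and did not pass the test.

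The siRNA itself can also be set beside the members. The labels give its sense strand, and the guide strand is the complement of that. In RNA interference the guide's seed, positions 2 to 8 from its 5′ end, can pair with messages other than the intended one. The strands are shown because sites are defined by them, with the seed in capitals in the guide and the 7-base match with a final A in capitals in the sense strand.
siADAMTS12 sense: gccaaaguuuggAGGGAAA
siADAMTS12 guide: uUUCCCUCcaaacuuuggc
Sites were searched in 3′ untranslated regions of GENCODE 29 as AGGGAA (6-mer), AGGGAAA (7-mer with A), GAGGGAA (7-mer to positions 2 to 8) and GAGGGAAA (8-mer). At least 1 was found in 14 of the 50 genes (28.0%), against 41.4% of the 12731 genes searched. Below is 1 site, as 19 bases of the message with the match in capitals, for each gene that fell with a site or that carries a 7-mer, other than CDCA2.
CENPA, chr2:26794189-26794207, plus strand: attttacacataAGGGAAA
NCAPG, chr4:17843837-17843855, plus strand: agtaacatttctAGGGAAA
SMC2, chr9:104141053-104141071, plus strand: ttttttcattaGAGGGAAg
MKI67, chr10:128097791-128097809, minus strand: tctgcttgaggGAGGGAAt
CDCA8, chr1:37708902-37708920, plus strand: agtgacctcagtAGGGAAc
RACGAP1, chr12:49989410-49989428, minus strand: gagtaggctataAGGGAAg
TUBB4B, chr9:137243568-137243586, plus strand: actggggaaagcAGGGAAg
TPX2, chr20:31801726-31801744, plus strand: gctgataacaacAGGGAAc

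Of the 14 mitotic genes with a site 7 fell and none rose, and of the 36 without one 8 fell and 1 rose. Across all genes searched, 27.1% of the 5265 with a site and 895 of the 7466 without one fell. The rate of declines by kind of site was 17.7% for a 6-mer, 26.8% for a 7-mer with A, 28.6% for a 7-mer to positions 2 to 8 and 47.5% for an 8-mer. CDCA2, whose log2 fold change was the lowest, held the only 8-mer among the 50. Of the 9 members with no site longer than a 6-mer, 4 fell. These were CDCA8, with 3 separate 6-mers, and TUBB4B, RACGAP1 and TPX2, with 1 each. CDK1, CDC25C, FOXM1, CDCA5 and CENPE, also with a 6-mer, did not pass the test. Of 2 members with a 7-mer with A, CENPA fell and NCAPG did not. Of 2 with a 7-mer to positions 2 to 8, SMC2 fell and MKI67 did not. ANLN, TOP2A, CDC25B, NDC80, NUF2, BIRC5, MAD2L1 and HJURP fell with no site in the region searched. Between 7 and 12 of 19 bases of the guide could pair at the 18 sites found. The part of these sites in the declines was not tested.

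The other genes of cell division, 202 in 10 lists of which 200 entered the test, gave 40 declines and 15 rises with a median log2 fold change of -0.04, where 15.5% and 11.5% of all genes tested fell and rose. That balance depended on the scaling, with 24 declines and 41 rises with equal totals and 28 and 27 with quantile normalization. The proteins that regulate the 50 genes belong here. Of 16 MuvB, DREAM and E2F factors 7 fell and 4 rose, led by the pocket protein RBL2 (-0.49 ± 0.06, limma adjusted p = 0.000114) and by E2F5, a repressive E2F (1.12 ± 0.15 on the log2 scale, limma adjusted p = 0.000262). Among 24 other regulators of mitotic entry 6 fell and 2 rose, with PLK2, a stress-responsive Polo-like kinase, at -0.61 ± 0.06 and the kinase NEK6 at 0.31 ± 0.06. The 33 DNA replication genes gave 5 declines and 4 rises with a median of 0.0042, with POLA1, the catalytic subunit of DNA polymerase alpha, at -0.48 ± 0.06 and the flap endonuclease FEN1 at 0.97 ± 0.06.

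Partners of the 50 genes in the same machines gave the counts below, where 15.5% of all genes tested fell and 11.5% rose. Among 7 other condensin and chromosome genes 1 fell, the condensin II subunit NCAPG2 (-1.15 ± 0.06, limma adjusted p = 2.03e-07). Its ratio to NCAPG within a library, chosen after the values were seen, was 1.496 ± 0.070 (SD, n = 3) in siCTL and 0.602 ± 0.0058 in siADAMTS12 (exact two-sided permutation p = 0.1, the smallest possible here). Of 18 other cytokinesis genes 5 fell and none rose, with SEPTIN11 lowest in p (-1.40 ± 0.06, limma adjusted p = 4.81e-08). Of 27 other spindle and centrosome genes 5 fell and 2 rose, with the cargo kinesin KIF5B at -1.37 ± 0.06 and CLASP2, which stabilises microtubule ends, at 0.35 ± 0.07. Of 9 tubulins 3 fell and none rose, among them TUBB6 (-0.49 ± 0.07, or -0.22 with quantile normalization).

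Of 34 other kinetochore and checkpoint genes 3 fell and 2 rose, where 15.5% and 11.5% of all genes tested did so. OIP5, which helps load CENPA, was at -0.45 ± 0.11. CENPP was at 0.30 ± 0.08, a call lost without replicate 1 or replicate 2 of either group. Of 15 cohesin and separase genes 2 fell and none rose, with the cohesin subunit RAD21 at -0.56 ± 0.07. Of 17 genes of the anaphase-promoting complex 3 fell and 1 rose, with ANAPC13 at -0.61 ± 0.09 and ANAPC7 at 0.19 ± 0.06, a call that was lost when any library was left out (limma adjusted p up to 0.126). Seed sites were found in ANAPC13, RAD21, KIF5B and POLA1 (8-mers), CENPP (7-mer to positions 2 to 8), NCAPG2 (7-mer with A) and PLK2, SEPTIN11 and CLASP2 (6-mers), and none in RBL2, OIP5, TUBB6, E2F5, FEN1, NEK6 or ANAPC7. The part of these sites was not tested either.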

How the data were processed

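Poly(A) RNA of 3 siCTL and 3 siADAMTS12 libraries was sequenced after TruSeq Stranded mRNA preparation, per the labels' protocols. The deposited values are treated as a score: the authors' table holds normalized counts as whole numbers, already scaled to each other (median-of-ratios factors recomputed from the 6 columns lay between 1.003 and 1.007). STAR, HTSeq, DESeq2 and GRCh38 are named, per the submitters' processing notes; no source used here gives their versions, the annotation or the strand setting of the counting. No gene held 9 of the integers 1 to 40 in the third siCTL column or 12 of them in the second siADAMTS12 column, so the values are not raw reads, no count model was used and the depth is unknown. No interval for counting error is given, and reads of same-strand overlapping or near-identical genes may be split in a way that cannot be seen.

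Genes with a mean of at least 10 over the 6 libraries (15637 of 60669) were fitted on log2(value + 1) with limma 3.58.1 in R 4.3.3 (lmFit, eBayes with an intensity trend), with Benjamini-Hochberg adjustment over all of them and a threshold of 0.05. Differences are the siADAMTS12 minus the siCTL mean on that log2 scale, which understates changes of low genes, and are given ± SE. The fit was run on simulated data with planted changes larger than most of the declines reported here. Smaller declines were therefore not covered, nor was a shift shared by many genes of a library, which the simulation lacked. Tables were made with Python 3.11.15, pandas 2.3.3 and matplotlib 3.10.9. Log2 values of libraries correlated at 0.985 to 0.994, and no 2 were identical.

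Deviations from the group mean were weakly alike in libraries of the same number (r = 0.37, 0.13 and 0.13, against -0.19 to 0.06 for other numbers, across genes, which are not independent replicates). This does not settle whether the numbers pair the samples. The main fit therefore has no block, and the blocked values stand beside the results they change.

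The members, the comparison lists and the role groups were chosen with earlier results of these data known. The text names every member that passed the threshold, the member of highest mean value, uncorrected for length, in each role group, the member of smallest p where none passed, and the gene of smallest adjusted p in each direction from each comparison list. The 15 alternatives changed the pseudocount, the filter, the trend, the scaling, the replicate block or the libraries. The 3′ untranslated region searched is that of 1 principal transcript per gene, at least 30 bases long, in GENCODE 29 (GRCh38). Promoter windows are RefSeq's; 8 of the 50 genes had none in the table, and no sequence is printed for CDCA2.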

Additional observations from a re-analysis of the deposited data

How the results depend on the processing

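Of the 50 mitotic genes, 7 fell and 1 rose without the intensity trend, 7 fell and 3 rose with quantile normalization, 6 fell and 5 rose with equal library totals, and 20 fell and 3 rose with the replicate block. Over all genes tested, 1942 fell and 1403 rose without the trend, and 2078 and 2175 with quantile normalization. With equal totals these were 1546 and 3868, and with the block 3059 and 2423. Leaving out 1 library gave 8 to 22 declines and 1 or 2 rises among the 50. Over all genes it gave 1872 to 2364 declines and 1230 to 1623 rises. The median log2 fold change of the 50 was -0.057 with quantile normalization and -0.021 with equal totals, and lay between -0.20 and -0.11 when a library was left out. The other division genes gave 28 declines and 7 rises without the trend, 28 and 27 with quantile normalization, 24 and 41 with equal totals, 56 and 22 with the replicate block, and 28 to 45 declines and 7 to 11 rises with 1 library left out. Over all genes tested, 71.4% of calls were rises with equal totals and 51.1% with quantile normalization, against 42.6%. The sign turned for 11 of the 50 genes with quantile normalization, 14 with equal totals and 16 under at least 1 alternative, none of which had passed the test; among those the naming rule chose these were CDC20 (0.088 with quantile normalization, 0.045 with equal totals), CENPF (0.11 and 0.087, and -0.13 to 0.028 with 1 library left out, above 0 without siADAMTS12 replicate 3 or siCTL replicate 3), KIF23 (0.13 and 0.086, and -0.11 to 0.0070, above 0 without siADAMTS12 replicate 1) and SMC4 (0.11 and 0.024). The cause was not tested. A pseudocount of 0.5 or 8 and a minimum mean of 50 changed no call of the 50 genes. With depth unknown, low values such as those of NUSAP1 and PRC1 limit what could be detected.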
